A study of Mus musculus with 18 samples.

Results

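The 7 genes described here encode 3 steroid receptors and 4 of the coregulators that such receptors recruit. The receptors are the glucocorticoid receptor (Nr3c1), the mineralocorticoid receptor (Nr3c2) and the progesterone receptor (Pgr). The coregulators are the nuclear receptor corepressor Ncor1 and the steroid receptor coactivators Ncoa1, Ncoa2 and Ncoa3. Their members are CpG sites, chosen by position alone: every CpG inside a gene body or within 5 kb of it on GRCm38 that was covered by at least 10 reads in both pools of a tissue. This gave 1093 of 1876099 tested CpGs in gonadal adipose tissue, 983 of 1569349 in hypothalamus and 968 of 1628817 in liver. In all, 1135 member CpGs were tested in at least 1 tissue and 914 in all 3 tissues.

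The assay was reduced representation bisulfite sequencing of genomic DNA, in which DNA is cut with the enzyme MspI at CCGG so that CpG-rich fragments are enriched, and bisulfite then marks unmethylated cytosines. The 18 samples came from male C57BL/6 offspring aged 3 weeks, 3 samples per treatment in each of gonadal adipose tissue, hypothalamus and liver. Their dams were gavaged daily from 1 to 20 days post-conception with bisphenol A (BPA), a monomer of polycarbonate plastic, at 5 mg/kg/day in corn oil, or with corn oil alone. Controls came from 3 litters and BPA offspring from 4. Which litter gave which sample was not used here. No allele was manipulated, and all dams received a diet low in estrogenic isoflavones.

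The deposited values are pooled: each tissue has 1 control pool and 1 BPA pool of 3 samples, so the spread between animals cannot be measured. All levels given here are therefore pooled values from the authors' tables, and every p compares 2 pools of reads. The 95% intervals cover counting error only, and reads amplified by PCR without molecular identifiers are not independent molecules. The pool numbered 0 was read as control only because a label names the control group first, so every BPA direction would turn if that order were reversed. The sources used here do not say whether tissues were sequenced together, so tissue and sequencing batch cannot be told apart. In bulk tissue, the make-up of cell types and the methylation within a cell type cannot be told apart either.

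Corticoid and progesterone receptors are ligand-activated transcription factors. When bound to an agonist they recruit coactivators of the Ncoa family, which bring histone acetyltransferases and methyltransferases to the gene, and corepressors such as Ncor1 oppose this through histone deacetylases. The glucocorticoid receptor acts in liver on glucose production, in fat on adipocyte differentiation and lipid turnover, and in the hypothalamus on feedback to the adrenal axis. Promoters of such broadly used genes often lie in CpG islands, whose CpGs are usually unmethylated, while CpGs elsewhere in a gene body are commonly methylated.

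Summed reads per pool were 213672622 to 409016549, and member CpGs had median depths of 93 to 166 reads per pool, lowest in the hypothalamic control pool. At CpGs of intermediate level in the whole table, the squared difference between pools was on average 2.10 times the counting error in adipose, 1.21 in hypothalamus and 1.28 in liver. Of 8 hepatocyte marker genes, all 8 had their lowest control level in liver, with a median gene level of 45.1% there against 84.5% in adipose. Of 7 adipocyte markers, 4 were lowest in adipose and 2 in liver. Of 7 neuronal markers, 3 were lowest in hypothalamus and 3 in liver. Of 5 astrocyte markers, 2 were lowest in hypothalamus and 2 in adipose, and of 4 oligodendrocyte markers, 1 in hypothalamus and 2 in adipose. CpGs that read under 1% in both other tissues were at 0.459% in the control and 0.868% in the BPA pool of hypothalamus.

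RefSeq promoter windows on GRCm38.p6, from 250 bases before to 50 after a transcript start, were matched for 4 of the 7 genes: Nr3c2, Pgr, Ncor1 and Ncoa1. The 3 windows below are shown because CpGs of these data lie in them. Capitals mark the CpGs listed in at least 1 tissue, and all other bases are in lower case.
Nr3c2, chr8:76902080-76902379, plus strand: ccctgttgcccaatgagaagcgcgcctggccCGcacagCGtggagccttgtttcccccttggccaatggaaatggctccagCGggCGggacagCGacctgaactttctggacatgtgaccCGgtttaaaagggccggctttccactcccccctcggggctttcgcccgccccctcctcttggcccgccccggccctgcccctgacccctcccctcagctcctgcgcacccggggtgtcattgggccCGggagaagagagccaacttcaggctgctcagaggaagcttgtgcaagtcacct
Ncor1, chr11:62457283-62457582, minus strand: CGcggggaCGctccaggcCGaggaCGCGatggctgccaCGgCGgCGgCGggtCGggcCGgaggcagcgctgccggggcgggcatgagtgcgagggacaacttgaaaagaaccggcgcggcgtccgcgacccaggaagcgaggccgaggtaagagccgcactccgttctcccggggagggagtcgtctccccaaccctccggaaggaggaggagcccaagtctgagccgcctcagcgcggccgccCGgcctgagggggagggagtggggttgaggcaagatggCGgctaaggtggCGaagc
Ncoa1, chr12:4477133-4477432, minus strand: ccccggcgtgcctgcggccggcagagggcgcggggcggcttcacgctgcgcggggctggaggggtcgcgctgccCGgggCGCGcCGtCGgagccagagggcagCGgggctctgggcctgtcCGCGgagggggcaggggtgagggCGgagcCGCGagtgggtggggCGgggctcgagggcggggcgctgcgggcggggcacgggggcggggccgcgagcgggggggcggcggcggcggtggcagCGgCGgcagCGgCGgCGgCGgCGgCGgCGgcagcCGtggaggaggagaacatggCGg
The Ncoa1 window is the densest, with 49 CpGs, a number reached by 1.02% of all 32851 promoter windows. The Ncor1 window holds 36 CpGs (as many in 6.23% of windows) and the Nr3c2 window 17 (as many in 31.4%). The MspI site CCGG occurs 5 times in the Nr3c2 window, 6 times in that of Ncor1 and 3 times in that of Ncoa1, and in 52.8% of all windows. The Pgr window has 6 CpGs and no CCGG, and none of its CpGs was measured. A second Ncor1 window (chr11:62438466-62438765) has 2 CpGs, none of them measured, and no CCGG. The hexamer AGAACA, one arm of the palindrome bound by corticoid and progesterone receptors, was searched on both strands. It occurs once in the Ncoa1 window, 2 times in the second Ncor1 window, not in the 2 other windows shown, and in 19.0% of all windows. The whole palindrome, this hexamer followed after 3 bases by its reverse complement, occurs in none of these windows and in 3 windows overall.

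The tested CpGs in these promoter windows carried almost no methylation in any pool. In the Ncoa1 window, up to 23 CpGs together read 0.308% in the adipose control pool and 0.779% in the BPA pool. The same window read 0% and 0.517% in hypothalamus, and the liver pools 0.305% and 0%. In the Nr3c2 window, 7 CpGs read 0.585% and 0.103% in adipose, and the hypothalamic pools 0.528% and 1.15% and the liver pools 0.315% and 0.212%. In the Ncor1 window, 3 tested CpGs read 1.79% and 1.37% in adipose, with 0% and 2% in hypothalamus and with 0.288% and 0.775% in liver. The tested CpGs of each window, only a part of its CpGs, therefore together stayed at or under 2% in all 6 pools.

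Over the CpGs tested in all 3 tissues, the 7 genes fell into a low pair and 5 genes at 28.1% of reads or more. Pgr, the progesterone receptor, was the lowest, with 0.911% of reads methylated in the adipose control pool (95% interval 0.765 to 1.08), 0.805% in hypothalamus (0.644 to 0.995) and 1.75% in liver (1.54 to 1.97) over 88 CpGs. Its BPA pools read 1.05%, 1.16% and 1.43%. Nr3c1, the glucocorticoid receptor, read 4.84% in adipose, 4.48% in hypothalamus and 3.56% in liver control pools over 157 CpGs, and 4.75%, 5.62% and 3.52% in the BPA pools. Neither gene had a CpG above 80% in all control pools.

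Nr3c2, the mineralocorticoid receptor, had higher levels than the other 2 receptors in all 6 pools. Its 174 CpGs read 38.9%, 32.6% and 34.1% in the control pools of adipose, hypothalamus and liver, and 38.8%, 31.9% and 33.1% in the BPA pools. The corepressor Ncor1 (80 CpGs) read 29.6%, 30.6% and 31.5% in control and 28.6%, 28.1% and 32.1% in BPA pools. Among the coactivators, Ncoa1 (128 CpGs) read 29.4%, 29.8% and 33.4% in control and 30.6%, 29.2% and 33.0% in BPA pools. Ncoa2 (189 CpGs) read 43.1%, 31.7% and 35.3% in control and 41.4%, 31.1% and 37.5% in BPA pools. Ncoa3 (98 CpGs) read 42.9%, 34.6% and 43.2% in control and 46.6%, 29.4% and 44.8% in BPA pools. In the adipose control pool the order from low to high was Pgr, Nr3c1, Ncoa1, Ncor1, Nr3c2, Ncoa3 and Ncoa2, and the counting intervals of Ncoa1 and Ncor1 overlapped, as did those of Ncoa3 and Ncoa2. In the hypothalamus and liver control pools Pgr and Nr3c1 were again the lowest, and Ncoa3 had the highest sum of the 7. These sums weight each CpG by its reads. With every CpG weighted equally over all its tested CpGs, Ncoa3 in hypothalamus read 36.8% in control and 36.7% in BPA pools, so the gap of its read sums did not appear in the mean of its CpGs. Weighted equally, Nr3c2 (39.2%) and Ncoa2 (38.7%) lay above Ncoa3 in the hypothalamic control pool, and Ncor1 read 21.3% in adipose, 20.6% in hypothalamus and 19.8% in liver control pools, under the other 4 of these 5 genes. By this mean Ncoa2 read 45.3% over its 223 tested CpGs in adipose and 45.5% over its 194 in liver control pools. The read sums over these same CpGs were 43.6% and 35.4%. The gap of the read sums thus did not appear in these means, though the 2 tissues differ in the CpGs tested. For Ncoa3 in adipose, the means were 39.5% in control and 40.6% in BPA pools, closer than its read sums. Pgr and Nr3c1 remained under 5% in every pool.

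**Figure D1:**
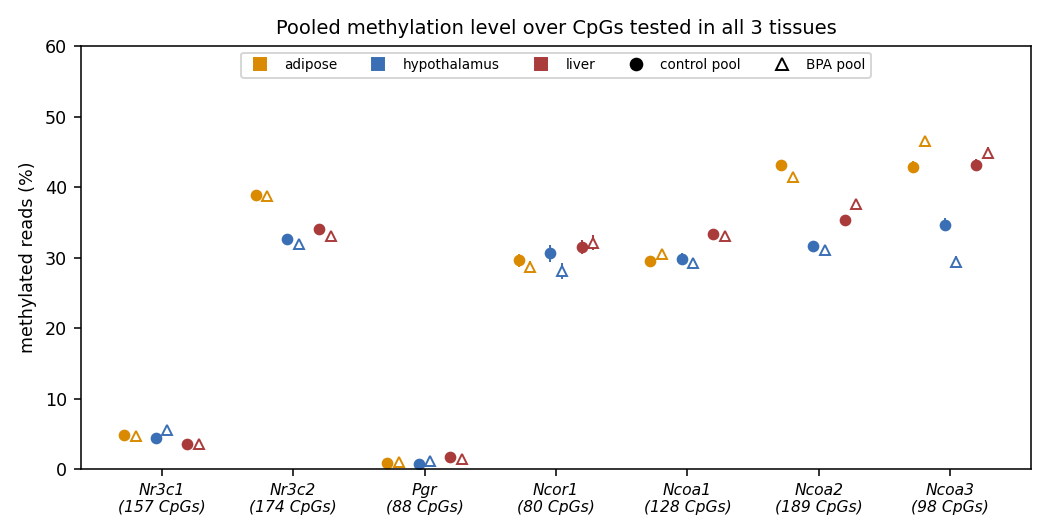
Pooled methylation level (percent of reads, vertical axis) of each gene over the CpGs tested in all 3 tissues, with circles for control pools, triangles for BPA pools, colours for tissues and bars for 95% counting intervals. Pgr and Nr3c1 lie under 6% in all 6 pools, and the other 5 genes lie between 28.1% and 46.6%.

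Most member CpGs lay in stretches that were either nearly unmethylated or nearly fully methylated. Joining CpGs no more than 200 bp apart gave 85 blocks, of which 12 held at least 20 CpGs and together 642 of the 914 CpGs. Of these 12, 11 were nearly unmethylated in every tissue. They were the only large blocks of Nr3c1 (146 CpGs, chr18:39488875-39490689), Pgr (88 CpGs, chr9:8900133-8901895), Ncoa1 (90 CpGs, chr12:4476430-4477358) and Ncoa3 (52 CpGs, chr2:165992701-165993304), with 2 in Ncor1, 2 in Ncoa2 and 3 in Nr3c2. The 88 Pgr CpGs formed 1 block, and no Pgr CpG tested in all tissues lay outside it.

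Across the 11 low blocks, the control levels ran from 0.324% to 0.911% in adipose, from 0% to 0.805% in hypothalamus and from 0.357% to 1.75% in liver. The BPA levels ran from 0.391% to 1.05%, from 0.682% to 1.83% and from 0.221% to 1.43%. The median low block read 0.423% in the control and 0.982% in the BPA pool of hypothalamus. Near-unmethylated CpGs of the whole hypothalamic table read 0.459% and 0.868%, a shift of the same direction, and its part in the members' values was not tested. The 1 large block that was not low lies deep in the Nr3c2 gene body (chr8:77141774-77142115, 21 CpGs) and read 95.6% to 96.6% in all 6 pools.

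The BPA comparison asked whether prenatal exposure went with other methylation at these genes. At an adjusted p under 0.05 (Fisher's exact test, Benjamini-Hochberg over all tested CpGs of the tissue) and a gap of 5 percentage points or more, 2 of 1093 member CpGs were called in adipose (0.183%), where 0.535% of all tested CpGs were called. One lay in Ncoa3 and was higher in the BPA pool (0.252% of all CpGs were called in that direction), and the other in Nr3c2 and was lower (0.283%). In hypothalamus 0 of 983 were called, where the share was 0.00586% of all CpGs, and in liver 0 of 968, where it was 0.0258%. At an unadjusted Fisher p under 0.05, 68 member CpGs stood out in adipose (6.22%, against 10.1% of all), 22 in hypothalamus (2.24%, against 3.41%) and 18 in liver (1.86%, against 4.21%). All of these shares lay at or under the background of their table.

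Member CpGs also differed from the whole table in level. In the adipose control pool 7.41% of them lay between 20% and 80% methylation, against 22.2% of all tested CpGs, and 49.8% of all called CpGs came from that range. The part of this in the low share of calls was not tested. The median absolute difference between pools was 0.700 points at member CpGs in adipose and 1.90 over all CpGs, 0.901 against 1.80 in hypothalamus, and 0.766 against 1.80 in liver. The interval of the difference lay within 10 points either way at 790 member CpGs in adipose (72.3%), 603 in hypothalamus (61.3%) and 679 in liver (70.1%). At the other member CpGs a difference of 10 points or more was within the counting error.

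**Figure D2:**
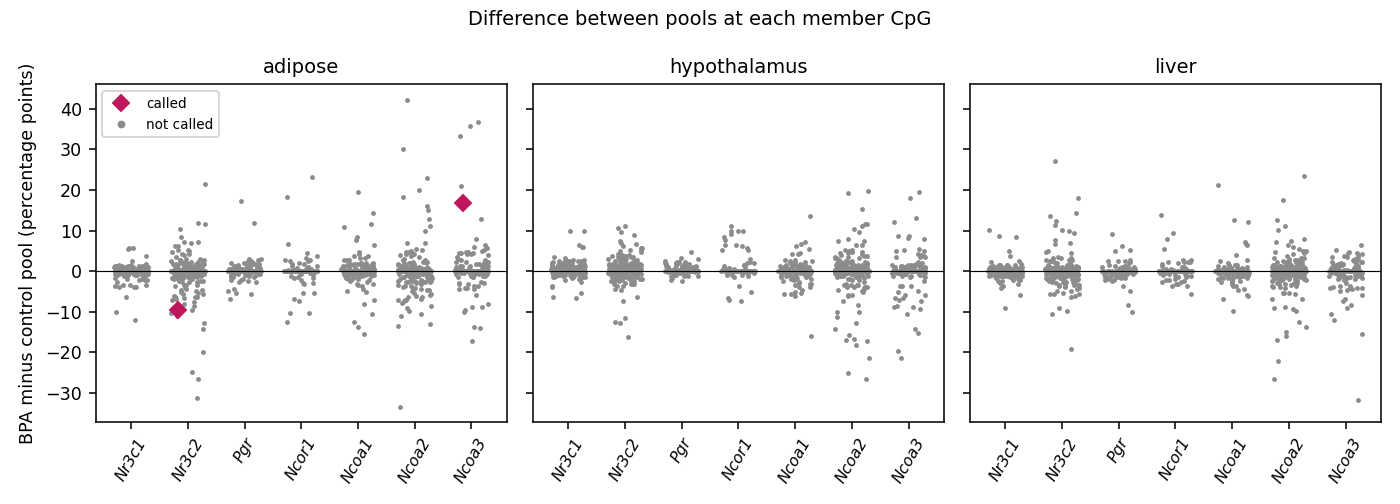
Difference in methylation (BPA pool minus control pool, percentage points, vertical axis) at each tested CpG of the 7 genes in adipose, hypothalamus and liver, with diamonds for called CpGs. The called CpGs, 1 in Nr3c2 and 1 in Ncoa3, are both in adipose.

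Ncoa3 encodes a coactivator of steroid receptors that carries domains for binding acetyltransferases. Its called CpG lies in the gene body (chr2:166051731), with no other gene within 5 kb. In adipose it was methylated in 66.0% of 291 reads of the control pool (60.2 to 71.4) and in 82.7% of 318 reads of the BPA pool (78.1 to 86.7). The BPA pool was higher by 16.7 points (9.82 to 23.5; Fisher's exact p = 2.66e-06, adjusted p = 0.00408). The same CpG read 79.4% of 141 control reads and 70.9% of 103 BPA reads in hypothalamus (exact p = 0.132), and 84.4% of 180 and 83.6% of 152 in liver (exact p = 0.881). The adipose control pool was thus the lowest of the 6, and the adipose BPA pool lay among the others. Of the 7 CpGs within 250 bp, this one included, 6 read higher and 1 lower in the adipose BPA pool. The nearest, 26 bp away, read 91.4% and 93.8%, and the one 32 bp away 92.9% and 94.0%. A CpG 179 bp away read 95.6% of 458 control and 99.1% of 564 BPA reads (Fisher's exact test, adjusted p = 0.0573). The neighbours within 250 bp thus all read above 90% in both pools, and none of them was called.

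Nr3c2 encodes the receptor for aldosterone, which also binds corticosterone. Its called CpG lies in the gene body (chr8:77122257). In adipose it was methylated in 95.2% of 252 control reads (91.8 to 97.5) and 85.8% of 281 BPA reads (81.1 to 89.6), so that the BPA pool was lower by -9.47 points (-14.5 to -4.53; Fisher's exact p = 0.000215, adjusted p = 0.0438). It read 96.9% of 96 control and 94.4% of 89 BPA reads in hypothalamus, and 91.7% of 193 and 92.9% of 196 in liver (exact p = 0.484 and 0.707). The adipose BPA pool was the lowest of the 6. The next CpG, 15 bp on, read 83.9% and 79.3% in adipose (Fisher's exact test, adjusted p = 0.788) and 93.5% of 92 and 77.4% of 84 reads in hypothalamus (adjusted p = 1). The CpG 217 bp away read 48.3% of 261 control and 50.8% of 264 BPA reads in adipose and was not called. Of the 3 CpGs within 250 bp, the called one included, 2 read lower and 1 higher in the adipose BPA pool. Both adipose calls were lost when the test statistic was scaled by the excess of the table's differences over counting error (adjusted p = 1 for each CpG, from the exact p after scaling), a setting under which 23 CpGs were called in the whole adipose table. With a minimum of 10 points, the Ncoa3 CpG alone was called. In the same adipose comparison, the share of CpGs called in the 8 lists of cell type markers ran from 0% (0 of 27 for epididymis and testis by the exact test, 1 at an unadjusted p under 0.05) to 2.17% (2 of 92 for hepatocytes), against 0.535% of all. It was 0.308% for adipocyte, 0.404% for neuronal, 0.752% for leukocyte, 1.16% for oligodendrocyte, 1.64% for endothelial and 1.79% for astrocyte markers. The part of cell make-up in the 2 member calls was not tested.

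**Figure D3:**
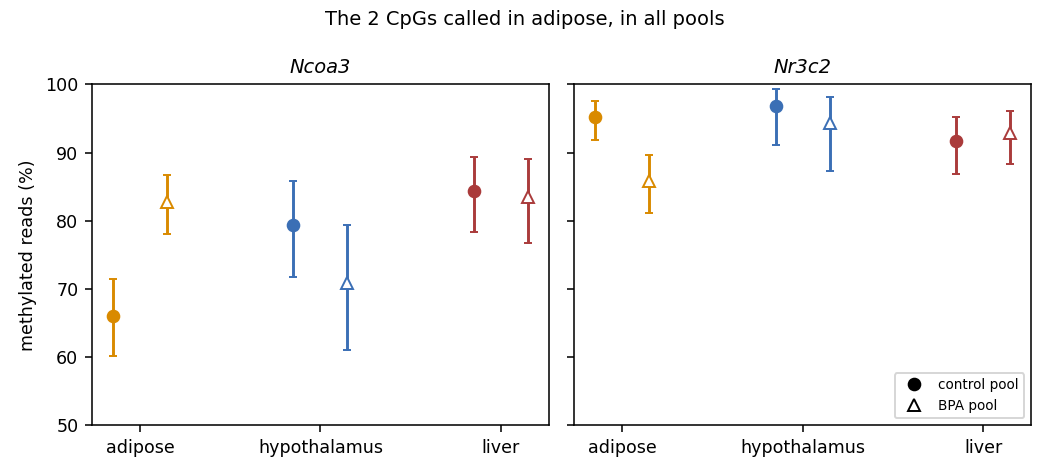
Methylation level (percent of reads, vertical axis, drawn from 50%) of the called CpGs of Ncoa3 and Nr3c2 in each pool, with circles for control and triangles for BPA pools and bars for 95% counting intervals. The intervals separate in adipose, 66.0% against 82.7% for Ncoa3 and 95.2% against 85.8% for Nr3c2, and overlap in hypothalamus and liver.

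No CpG of the other 5 genes was called, and the CpGs of at least 5 points with the smallest p of a gene and tissue are given here by their values. In Nr3c1, a gene-body CpG (chr18:39486461) read 44.6% of 294 control and 34.4% of 305 BPA reads in adipose (Fisher's exact test, adjusted p = 0.279), and another (chr18:39486495) read 47.7% of 478 and 58.0% of 383 in liver (adjusted p = 0.723). Both lie in the intermediate stretch described below for its tissue levels. The hypothalamic CpG of Nr3c1 (chr18:39489863) read 0% of 29 and 10% of 30 reads. In Pgr, a CpG at chr9:8901217 read 5.67% of 141 control and 0% of 179 BPA reads in adipose (exact-test adjusted p = 0.103). Pgr had no CpG of 5 points or more that met this rule in hypothalamus, and its liver CpG (chr9:8901852) read 0% of 21 and 9.09% of 11 reads. In Nr3c2, a liver CpG (chr8:77214741) read 65.8% of 38 and 92.9% of 42 reads (exact-test adjusted p = 0.779).

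In Ncor1, which docks histone deacetylases onto antagonist-bound steroid receptors, a gene-body CpG (chr11:62367735) read 99.2% of 133 control and 89.1% of 128 BPA reads in adipose (Fisher's exact test, adjusted p = 0.0515). It was called when the minimum was raised to 20 reads per pool. In Ncoa1, a CpG at chr12:4249114 read 54.2% of 83 and 73.7% of 76 reads in adipose (exact-test adjusted p = 0.290). In Ncoa2, a CpG at chr1:13174971 read 83.6% of 189 and 70.0% of 237 reads in adipose (exact-test adjusted p = 0.104), and a liver CpG at chr1:13276275 read 92.0% of 87 and 75.9% of 112 (adjusted p = 0.766). In Ncoa3, a hypothalamic CpG at chr2:166018601 read 93.3% of 208 and 84.6% of 214 (exact-test adjusted p = 1). The remaining coregulator CpGs had exact-test adjusted p = 1. In hypothalamus Ncor1 read 92.7% of 329 and 86.0% of 357 reads (chr11:62462231, also within 5 kb of Pigl), Ncoa1 90.2% of 112 and 96.9% of 130 (chr12:4459874) and Ncoa2 85.7% of 63 and 97.4% of 78 (chr1:13166910). In liver Ncor1 read 82.1% of 28 and 96.1% of 51 (chr11:62359418), Ncoa1 87.2% of 235 and 93.7% of 207 (chr12:4357529) and Ncoa3 86.4% of 66 and 70.8% of 72 (chr2:166057636).

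A Wald test compared the log odds ratios of BPA against control between tissues, with adjustment over all CpGs. The test called 0 of 944 member CpGs for hypothalamus against adipose (0.0266% of all CpGs), 0 of 950 for liver against adipose (0.0493%) and 0 of 929 for liver against hypothalamus (0.00375%). At an unadjusted p under 0.05 there were 21, 25 and 16, or 2.22%, 2.63% and 1.72%, against 5.39%, 6.54% and 3.66% of all CpGs. The Ncoa3 CpG had the smallest adjusted Wald p of the first pair, 0.213, and 0.488 for liver against adipose. The Nr3c2 CpG had adjusted Wald p values of 1 and 0.520. The adipose differences were therefore not shown to differ from those of the other tissues.

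More member CpGs were called between tissues than between treatments. Between control pools (Fisher's exact test, adjusted over all CpGs, and at least 5 points), 34 of 964 member CpGs were called between hypothalamus and adipose (3.53%, against 12.9% of all), 56 of 956 between liver and adipose (5.86%, against 16.5%) and 50 of 948 between liver and hypothalamus (5.27%, against 16.9%). These shares too lay under the background. Hypothalamus was higher than adipose at 13 (9.08% of all CpGs in that direction) and lower at 21 (3.79%). Liver was higher than adipose at 25 (8.42%) and lower at 31 (8.05%), and higher than hypothalamus at 24 (5.72%) and lower at 26 (11.2%). The BPA pools gave the same direction at 32 of the 33 CpGs also tested there, 54 of 56 and 50 of 50. Of these, 21, 36 and 35 were also called between the BPA pools, where 13.4%, 15.8% and 16.7% of all CpGs were called. Of the 621 CpGs in the low blocks, 1 was called between any tissues. These blocks were picked for low levels in every tissue, which left little room for a gap of 5 points.

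**Figure D4:**
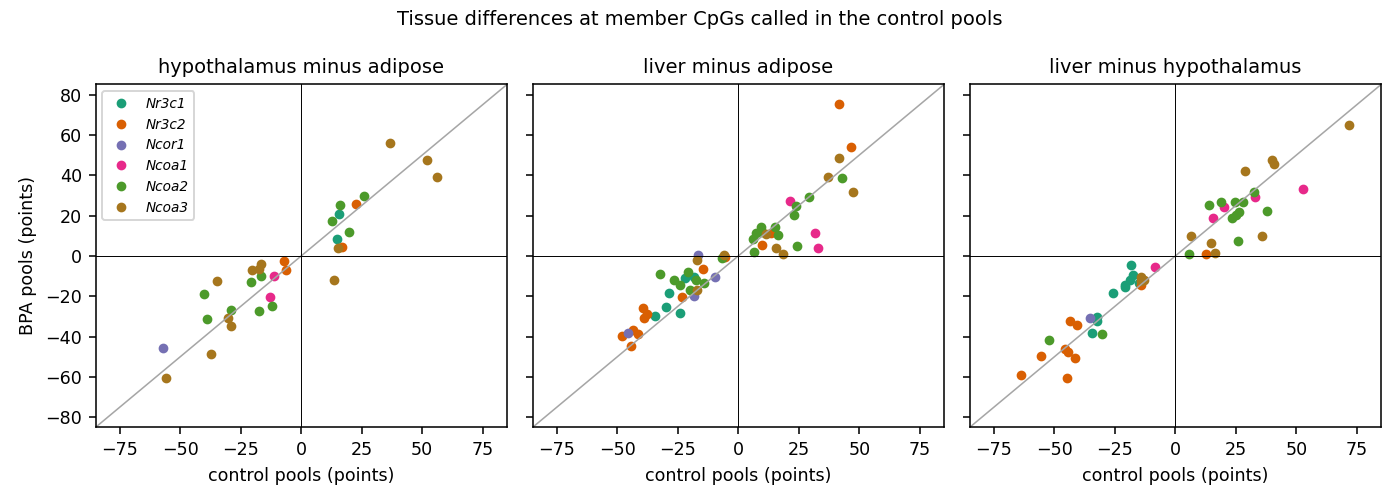
Difference between tissues (percentage points) at the member CpGs called in the control pools, with the difference between control pools on the horizontal axis, that between BPA pools on the vertical axis and a diagonal where both are equal. Points in the lower left and upper right have the same direction in both treatments, which holds for 32 of 33, 54 of 56 and 50 of 50 CpGs in the 3 panels from left to right.

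In Nr3c1, 6 of 162 CpGs were called for liver against adipose (3.70%, against 16.5% of all). Another 10 of 173 were called for liver against hypothalamus (5.78%, against 16.9%). All of these lay lower in liver. Among all CpGs, liver was lower than hypothalamus at 11.2% and higher at 5.72%. The clearest were in 1 stretch of 6 CpGs in the gene body (chr18:39486285-39486576), outside the large unmethylated block. Together these read 44.6% in adipose, 49.8% in hypothalamus and 22.6% in liver control pools, and 40.9%, 51.3% and 26.7% in the BPA pools. All 6 were called between liver and hypothalamus and 5 between liver and adipose. At the leading CpG (chr18:39486429) methylation was 40.2% of 614 reads in adipose, 42.9% of 406 in hypothalamus and 10.5% of 697 in liver. The liver control pool was lower than adipose by 25.2 to 34.2 points (Fisher's exact test, adjusted p = 1.66e-34). The BPA pools read 36.9%, 43.9% and 11.8% there, so that both liver pools lay under the 4 others. The CpG at chr18:39486495 was higher in hypothalamus (65.4% of 266 reads) than in adipose (50% of 392; exact-test adjusted p = 0.00161), a call that was lost with the scaled statistic (adjusted p = 0.108).

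In Nr3c2, 14 of 189 CpGs were called between liver and adipose (7.41%, against 16.5% of all). Another 10 of 177 were called between liver and hypothalamus (5.65%, against 16.9%). Most were also lower in liver, 10 of 14 against adipose and 9 of 10 against hypothalamus. Among all CpGs, liver was lower than adipose at 8.05% and higher at 8.42%, and lower than hypothalamus at 11.2% and higher at 5.72%. A gene-body stretch of 5 CpGs (chr8:76933084-76933280) read 77.8% in adipose, 77.9% in hypothalamus and 44.8% in liver control pools, and 74.5%, 81.4% and 48.4% in BPA pools. Its first CpG read 92.9%, 89.0% and 93.8% in the 3 control pools, and the 4 others were the ones called. At chr8:76933279 liver read 27.7% of 329 reads against 71.3% of 279 in adipose (Fisher's exact test, adjusted p = 2.65e-25). At chr8:76933233 it read 39.7% of 330 against 83.3% of 203 in hypothalamus (exact-test adjusted p = 5.62e-22). Between hypothalamus and adipose, 5 of 182 CpGs were called (2.75%, against 12.9% of all), 2 higher and 3 lower in hypothalamus. The leading one (chr8:77122474) read 71.0% of 124 reads in hypothalamus and 48.3% of 261 in adipose (exact-test adjusted p = 0.000459). Past the upper end of the gene, and also within 5 kb of Arhgap10, 3 CpGs at chr8:77248519, 77248730 and 77248748 read 23.8%, 27.7% and 32.6% in liver against 63.2%, 75.8% and 77.0% in adipose. The last 2 lie in a stretch of 3 CpGs (chr8:77248730-77248819), whose highest CpG read 97.9% in liver and 100% in adipose control pools. In the hypothalamus control pool the CpG at chr8:77248519 read 87.5% of only 16 reads, and that stretch read 85.1% of 74. Pgr had no CpG called between any tissues. At the CpG with the smallest p between liver and hypothalamus (chr9:8901259) the control pools read 3.99% of 326 reads in liver and 0% of 229 in hypothalamus (Fisher's exact test, adjusted p = 0.00853), a difference under the 5-point minimum. For liver against adipose it was chr9:8900958 (3.05% of 361 against 0% of 256, exact-test adjusted p = 0.0241). For hypothalamus against adipose it was chr9:8901217 (0% of 120 against 5.67% of 141, exact-test adjusted p = 0.0605).

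In Ncor1, 1 of 83 CpGs was called lower in hypothalamus than in adipose (1.20%, against 12.9% of all in either direction). In liver, 4 of 87 were lower than in adipose (4.60%, against 16.5%) and 1 of 83 lower than in hypothalamus (1.20%, against 16.9%). The hypothalamic call (chr11:62359418) read 98.7% of 76 reads in adipose, 41.7% of only 12 in hypothalamus and 82.1% of 28 in liver control pools. It was also called for liver against adipose, but its BPA pools read 95.6%, 50% and 96.1%. At chr11:62367735 the control pools read 99.2% of 133 reads in adipose, 88.9% of 27 in hypothalamus and 53.5% of 71 in liver (liver against adipose, Fisher's exact test, adjusted p = 2.37e-15), and the BPA pools 89.1%, 81.5% and 50.9%. The stretch of 9 CpGs around it read 98.4%, 91.3% and 85.4% in control pools. Ncoa1 had 2 of 131 CpGs called for hypothalamus against adipose (1.53%, against 12.9% of all), both lower in hypothalamus. Another 5 of 129 were called for liver against hypothalamus (3.88%, against 16.9%), 4 higher and 1 lower in liver. By contrast with Ncor1, the 3 of 131 called for liver against adipose (2.29%, against 16.5%) were each higher in liver. All 3 lay in 1 stretch of 4 CpGs near its lower end (chr12:4249097-4249199). The stretch read 54.4% in adipose, 57.8% in hypothalamus and 79.1% in liver control pools, and 66.5%, 53.2% and 80.4% in BPA pools. At its leading CpG (chr12:4249114) the gap of 54.2% against 87.2% in the control pools (Fisher's exact test, adjusted p = 0.00114) was 73.7% against 77.4% in the BPA pools (adjusted p = 1).

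Ncoa2 and Ncoa3 held the largest numbers of tissue calls per CpG tested of the 7 genes, still under the share of all CpGs. In Ncoa2, 11 of 195 CpGs were called between hypothalamus and adipose (4 higher and 7 lower in hypothalamus). Another 20 of 193 were called between liver and adipose (12 higher in liver) and 13 of 192 between liver and hypothalamus (11 higher in liver). These were 5.64%, 10.4% and 6.77% of its CpGs, against 12.9%, 16.5% and 16.9% of all. At chr1:13192998 methylation was 87.3% of 416 reads in adipose, 70.5% of 346 in hypothalamus and 96.9% of 413 in liver (liver against hypothalamus, Fisher's exact test, adjusted p = 1.98e-23). A second gene-body CpG, chr1:13219400, had the opposite order, with 45.1% of 286 in adipose, 70.9% of 148 in hypothalamus and 18.6% of 210 in liver (liver against adipose, exact-test adjusted p = 1.47e-08). Its BPA pools read 37.8%, 67.5% and 25.7%. Ncoa2 thus had no single ranking of tissues along its body.

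In Ncoa3, 13 of 113 CpGs were called between hypothalamus and adipose, 9 of 102 between liver and adipose and 11 of 102 between liver and hypothalamus. These were 11.5%, 8.82% and 10.8% of its CpGs, against 12.9%, 16.5% and 16.9% of all. A stretch of 5 CpGs in the gene body (chr2:166067577-166067693) read 92.4% in adipose and 95.7% in liver but 59.7% in hypothalamus control pools, and 91.9%, 94.1% and 47.2% in BPA pools. At chr2:166067649 hypothalamus read 57.0% of 107 reads against 94.4% of 142 in adipose (Fisher's exact test, adjusted p = 8.38e-11). Near the lower end of the gene, where the annotation also places LOC115489489, the lowest tissue depended on the CpG. In the gene body, chr2:165995825 read 47.9% of 146 reads in adipose, 100% of 38 in hypothalamus and 89.7% of 117 in liver (liver against adipose, exact-test adjusted p = 6.26e-12). Before the lower end, chr2:165988139 read 51.6% of 190 reads in hypothalamus, 80.6% of 310 in adipose and 92.2% of 347 in liver (liver against hypothalamus, exact-test adjusted p = 2.04e-24). The CpG called between BPA and control pools lies in a stretch of 10 CpGs. This stretch read 90.9% in adipose, 86.1% in hypothalamus and 93.3% in liver control pools, and 94.2%, 86.5% and 93.7% in BPA pools.

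**Figure D5:**
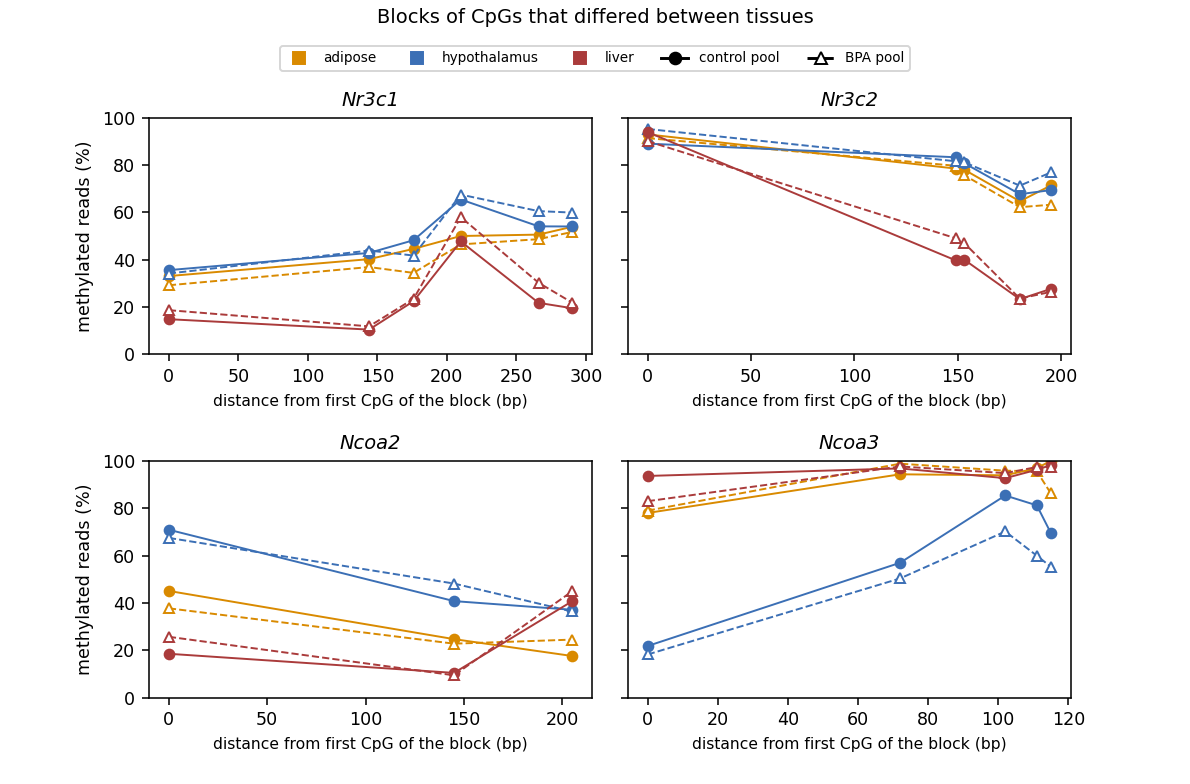
Methylation level (percent of reads, vertical axis) of each CpG in 4 stretches that differed between tissues, against distance from the first CpG (bp, horizontal axis), with filled circles for control and open triangles for BPA pools. Liver lies lowest along most of the Nr3c1 and Nr3c2 stretches, and hypothalamus lowest in that of Ncoa3; these stretches were chosen after their values were seen.

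The rest of the pathway was described with a list of 35 genes, of which 33 had tested CpGs: enzymes that handle the ligands, chaperones, target genes, and members of the corepressor and coactivator complexes. In adipose 6 of 3836 CpGs were called (0.156%, against 0.535% of all; Fisher's exact test with Benjamini-Hochberg adjustment), 4 higher and 2 lower in the BPA pool, at 1 CpG in each of 6 genes. In hypothalamus 0 of 3282 were called by the same test, where 0.00586% of all CpGs were called, and in liver 0 of 3176, against 0.0258%. At an unadjusted exact p under 0.05 there were 244 in adipose (6.36%, against 10.1% of all), 59 in hypothalamus (1.80%, against 3.41%) and 85 in liver (2.68%, against 4.21%). Each of these shares lay under the background of its table.

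At its called CpG, the chaperone Fkbp4, an immunophilin of the steroid receptor complex, was higher in the adipose BPA pool (92.0% of 337 control and 99.7% of 348 BPA reads, exact-test adjusted p = 0.000220). Stub1, a ubiquitin ligase that works with these chaperones, had a lower CpG (99.6% of 239 and 89.7% of 273, exact-test adjusted p = 0.000802). Srd5a1, which reduces progesterone and corticosteroids, had a lower CpG with 22 and 26 reads (100% and 53.8%, exact-test adjusted p = 0.0363). The glucocorticoid target Zbtb16 had a higher CpG (74.3% of 339 and 86.1% of 361), as did the acetyltransferase Crebbp (0.394% of 254 and 6.07% of 313) and the methyltransferase Carm1 (20.5% of 44 and 59.2% of 49). Each of these genes had 1 called CpG among 82 to 314 tested, and their gene-wide levels were close in both pools: Fkbp4 19.4% and 19.5%, Stub1 19.1% in both pools, Srd5a1 32.3% in both, Zbtb16 46.8% and 47.7%, Crebbp 19.6% and 19.5% and Carm1 9.97% and 9.79%.

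Among 14836 protein-coding genes with at least 20 CpGs in all tissues, those nearest to each member were found by the distance between their 6 pooled levels, a description over 6 pools with no test. Nearest to Nr3c1 were Dbx1 (distance 0.685 points) and 1700067K01Rik (0.700). Nearest to Nr3c2 were Zfp335 (1.65) and Glipr2 (1.74), and to Pgr Shisal2b (0.285) and Tmem115 (0.387). Among the coregulators, Notch1 (0.990) and Nrxn2 (1.82) were nearest to Ncor1, Tnfaip2 (2.03) and Ccdc12 (2.07) to Ncoa1, Inha (2.05) and Tcf25 (2.28) to Ncoa2, and Dnajc6 (3.83) and Lmf2 (3.88) to Ncoa3. Ncoa3 therefore had the most distant neighbours of the 7 genes and Pgr the closest.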

How the data were processed

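Reads were aligned with BSMAP to GRCm38 (mm10), per the submitters' processing notes; the sources used here give no version. Per the file headers, the authors deposited for each tissue the read counts covering each CpG in pools 0 and 1, the methylation fraction of each pool, and a Fisher p-value between pools. The other deposited value, the authors' credible difference between pools, served only as an alternative. Every listed CpG had at least 3 reads in each pool. No value per sample was in the columns used, and 0 other columns of per-sample values were left aside.

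Methylated reads were recomputed as count times fraction. CpGs with at least 10 reads in both pools were tested, with Benjamini-Hochberg adjustment over the whole table, and called at an adjusted p under 0.05 and at least 5 percentage points. Recomputed Fisher p-values matched the deposited ones at 100% of member CpGs (within 0.005 on the log10 scale). The 95% intervals are exact Clopper-Pearson for levels and Newcombe for differences. The Wald test added 0.5 to each cell. The scripts were tested on simulated data and used Python 3.11.15, pandas 2.3.3, numpy 2.4.6, scipy 1.17.1 and numba 0.67.0.

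The coverage minimum left out 32 of 1125 listed member CpGs in adipose, 63 of 1046 in hypothalamus and 27 of 995 in liver. In adipose, the 17 CpGs with 10 to 12 reads in the shallower pool read 56.1% in control and 54.1% in BPA pools, and the 18 with 7 to 9 reads 25.5% and 36.6%.

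Named CpGs were every called one, or else the one of at least 5 points with the smallest p per gene and tissue, and the one with the smallest p per gene and tissue pair. The stretches that differed between tissues were chosen after their values were seen. A further 2 genes of the pathway list are not reported here, and the list's counts leave them out. The genes, lists and tests were chosen with earlier results of these data known. Gene positions, names and promoter sequences are from RefSeq (GRCm38.p6). No genome or exon annotation was used here, so CpGs are placed in gene bodies, flanks or the RefSeq promoter windows, which alone give a strand.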

Additional observations from a re-analysis of the deposited data

How the results depend on the processing

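Counting error is the only error these pools give. The adipose count of 2 called member CpGs became 1 with a minimum of 10 points and 0 with the statistic scaled by the excess over counting error. Requiring the authors' credible difference of at least 5 points, with no adjusted p, gave 19 in adipose (1.74%, against 2.99% of all CpGs), 5 in hypothalamus (0.509%, against 0.858%) and 5 in liver (0.517%, against 0.995%). Between control pools, the scaled statistic, chosen after seeing the data, gave 14 calls in place of 34 for hypothalamus against adipose and 32 in place of 56 for liver against adipose. Of the CpGs named by rule, in the comparison that named them, 6 lost their call with it, and 2 lost it in the BPA pools. As the mean of CpG levels in place of read sums, the member level was 28.6% in the adipose control pool (29.4% by reads) and 28.6% in its BPA pool (29.2%), 25.9% (23.3%) and 26.1% (22.5%) in hypothalamus, and 28.1% (26.5%) and 28.0% (27.0%) in liver. The Ncor1 CpG at chr11:62359418 had the other direction for liver against adipose in the BPA pools, by 0.5 points. No other called CpG named in the report reversed its direction under the settings run. In all, 1 of 33 and 2 of 56 CpGs called against adipose had the other direction in the BPA pools. Depth was lowest in hypothalamus, where the interval of the difference lay within 10 points at 61.3% of member CpGs.

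No paired analysis was possible because the deposited tables hold pools and not the numbered samples; for the same reason, no sample was left out in turn.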
